A study of Homo sapiens with 8 samples.

Results

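Glycine tRNA genes were followed in small RNA libraries made from HEK293T, a line derived from human embryonic kidney. They are the rows of the deposited tRNA gene count table whose amino acid column reads Gly, leaving out names that start with nm-. This gave 36 of 631 genes, of which 12 carry the anticodon CCC, 15 carry GCC and 9 carry TCC. The control cells had received a CRISPR/Cas9 plasmid with no guide RNA and are labelled with 100% ADAT2 expression. The edited cells, called knockdown here, had received the plasmid with a guide against ADAT2 and are labelled as a stable heterozygous line with 50% ADAT2 expression. Each group held 2 libraries, numbered 3 and 4 in both groups and each sequenced on 2 lanes, so the 8 deposited samples are 4 libraries. The series asks how tRNA gene counts and tRNA fragments compare between these lines.

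A tRNA brings its amino acid to the ribosome and reads the codon with its anticodon. The 3 glycine anticodons together read the GGN codons, with GCC reading GGC and GGU, CCC reading GGG and TCC reading GGA. ADAT2 and its partner ADAT3 turn the adenosine at the first anticodon position, the wobble base, into inosine in certain other tRNAs. Glycine tRNAs here have C, G or T at that position in the gene and so offer no such adenosine. Under stress, tRNAs can be cleaved in the anticodon loop, and fragments that run from the 5′ end of glycine tRNAs to that loop are common in small RNA libraries.

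The libraries held 698143 and 1069932 counts in controls 3 and 4, and 878791 and 1211292 counts in knockdown libraries 3 and 4. A count may stem from a whole tRNA, a precursor or a fragment, and in bulk RNA fewer cells and less RNA per cell cannot be told apart. Each group is 1 cell line, so lower ADAT2 and other differences between the lines cannot be told apart. Separate cultures are not mentioned in the labels, so the replicate error behind each p-value may be technical only. ADAT2 is not a tRNA gene, and its labelled level was not checked here.

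Glycine genes were 5.71% of the genes in the table and held far more of the counts. They gave 246246 of the counts in control 3 (35.3%, 95% Wilson interval 35.2 to 35.4) and 229163 in control 4 (21.4%, 21.3 to 21.5). They gave 281464 counts in knockdown 3 (32.0%, 31.9 to 32.1) and 226297 in knockdown 4 (18.7%, 18.6 to 18.8). These intervals cover counting error only. Both libraries numbered 3 stood above both libraries numbered 4, and the groups overlapped. The group means were 28.3 ± 9.80% in control and 25.4 ± 9.44% in knockdown (SD, n = 2), a difference of -2.99 percentage points. The difference was -3.24 points within number 3 and -2.74 points within number 4. A two-sided exact permutation test gave p = 0.67, where 2 against 2 libraries cannot go below 0.33. Leaving out control 3 or knockdown 4 turned the difference to 3.94 and 3.68 points, and leaving out knockdown 3 or control 4 took it to -9.66 and -9.92 points, since the groups then held unequal numbers of high libraries.

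Gly-CCC and Gly-GCC gave nearly all of the glycine counts. Gly-CCC made up 52.8% of glycine counts in control 3, 47.0% in control 4, 59.9% in knockdown 3 and 49.6% in knockdown 4. Gly-GCC made up 43.3% and 47.2% in controls 3 and 4, and 36.5% and 44.6% in the knockdown libraries. Within each number the knockdown library had the larger CCC share and the smaller GCC share, and the groups overlapped. Across groups, the CCC share was higher in knockdown by 7.06 points in number 3 and by 2.55 points in number 4, and by 4.81 points on average (49.9 ± 4.08% against 54.7 ± 7.26%, SD, n = 2, exact permutation p = 0.67). The GCC share differed by -6.76 and -2.54 points within the numbers and by -4.65 points on average (45.2 ± 2.75% against 40.6 ± 5.74%, SD, n = 2, exact permutation p = 0.67).

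Gly-TCC was the small family. It made up 3.94% and 5.81% of glycine counts in controls 3 and 4, and 3.63% and 5.79% in knockdown libraries 3 and 4. As a share of all counts it was 1.39% and 1.24% in the controls against 1.16% and 1.08% in the knockdown libraries. On this last measure both knockdown libraries lay below both controls (1.32 ± 0.102% against 1.12 ± 0.0579%, SD, n = 2), and the exact permutation p was 0.33, the smallest the design allows. The groups overlapped in the TCC share of glycine counts, and in the CCC and GCC shares of all counts. How many other families lay apart in this way is not given here.

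**Figure D1:**
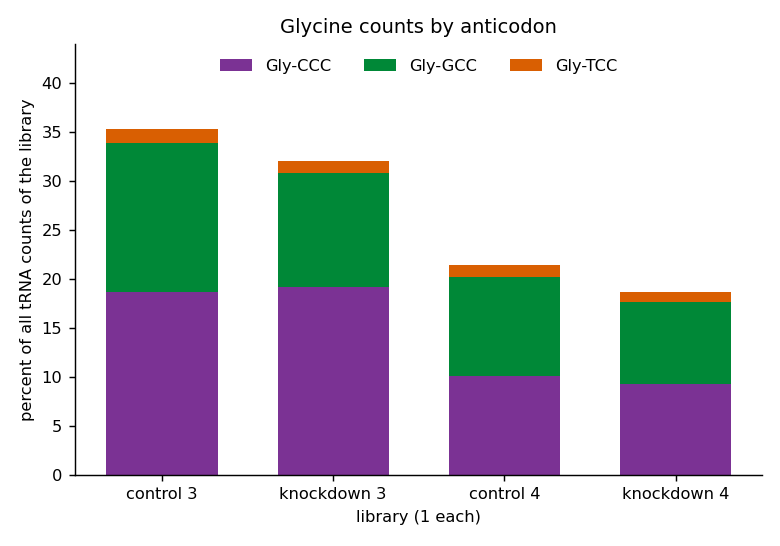
Percent of all tRNA counts in each library that fell on the 3 glycine anticodon families, as stacked bars with 1 bar per library and no error bar. The bars reach 35.3% and 32.0% in the libraries numbered 3 against 21.4% and 18.7% in those numbered 4.

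Counts were unequal among the members. Levels of single genes are given as CPM, which are counts scaled to a common library total. In controls 3 and 4, 4 and 5 genes gave 50% of glycine counts and 16 and 18 genes gave 90%. In the knockdown libraries the numbers were 3 and 5 genes, and 16 and 18 genes. All members are between 61 and 72 bases long in the table. Ranking them by CPM per base moved no member into or out of the 10 highest, all of which are Gly-CCC or Gly-GCC genes. The order of the 36 members was much alike in all libraries, with a Spearman rho from 0.971 to 0.996 between pairs of libraries, all counted on the same set of near-identical copies.

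The most counted member was Gly-CCC-chr1-137 (hg38, chromosome 1, 16545939 to 16546009, minus strand, between annotated genes). It had 79726 and 38968 CPM in controls 3 and 4, and 82167 and 35805 CPM in knockdown libraries 3 and 4. Gly-CCC-1-2 (chromosome 1, 16861921 to 16861991, plus strand, in an intron of CROCC, which codes for a ciliary rootlet protein) followed with 58299 and 34855 CPM in the controls against 60443 and 30943 in the knockdown libraries. Both genes were high in number 3 and lower in number 4, with the groups overlapping. Together they held 36.8 ± 3.30% of glycine counts in control and 40.1 ± 6.22% in knockdown (SD, n = 2, exact permutation p = 0.67), higher in knockdown by 5.39 points in number 3 and 1.26 in number 4.

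These genes are neighbours. Together with Gly-CCC-chr1-135 (16678271 to 16678341, minus strand) and Gly-CCC-chr1-2 (16727285 to 16727355, plus strand), both between annotated genes, they lie within 316053 bases of the short arm of chromosome 1. The 4 genes held 45.0% and 39.5% of glycine counts in controls 3 and 4, and 51.9% and 41.9% in knockdown libraries 3 and 4. Gly-CCC-chr1-135 had 17153 and 9491 CPM in the controls against 18970 and 10093 in the knockdown libraries. Gly-CCC-6-1, also on chromosome 1 (121016850 to 121016910, minus strand, in an intron of the pseudogene AC241377.2), had 19781 and 6097 CPM in the controls against 19101 and 6140 in the knockdown libraries. In both genes the number of the library separated the values and the groups overlapped.

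Gly-GCC-1-5 on chromosome 21 (17454789 to 17454859, minus strand, between annotated genes) was the most counted GCC gene. It had 32983 and 17882 CPM in controls 3 and 4, and 21869 and 14315 CPM in knockdown libraries 3 and 4. Gly-GCC-3-1 on chromosome 16 (70778211 to 70778281, minus strand, in an intron of VAC14, which codes for a scaffold of phosphoinositide synthesis) had 17206 and 11518 CPM in the controls against 14990 and 9689 in the knockdown libraries. For both, knockdown 3 lay between the controls, so the groups overlapped. The other 4 of the 10 highest were copies of Gly-GCC-2. Gly-GCC-2-3 lies on chromosome 6, Gly-GCC-2-6 on chromosome 17, Gly-GCC-2-5 in an intron of VAC14 on chromosome 16, and Gly-GCC-2-1 at chromosome 1 161523847 to 161523917, overlapping an exon of FCGR2A, which codes for an Fc gamma receptor. Their control means ran from 8795 to 9913 CPM.

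At the low end, Gly-CCC-8-1, in an intron of HYDIN2, and Gly-CCC-chr1-104, in an intron of AC239809.3, had no count in any library. A count of 0 allows up to 3 counts per library, or 4.30 and 2.80 CPM in controls 3 and 4 and 3.41 and 2.48 CPM in knockdown libraries 3 and 4. Gly-GCC-6-1 had 5 and 2 counts in the controls against 6 and 1 in the knockdown libraries, too few to test. The other 33 members passed the filter on low counts. Each gene of the table has a mismatch number, which the table does not explain. The 18 members with a mismatch of 0 had a median control mean of 8545 CPM, the 12 with 1 had 900 CPM, and the 5 with 2 had 19.4 CPM. The only member with 3 was listed at 0. The medians also fell with the mismatch number within Gly-CCC and within Gly-GCC, though Gly-GCC had only 1 member with 1 and 1 with 2. Gly-TCC had no member with 0. There the 8 with 1 had a median of 289 CPM and the only one with 2 had 7680 CPM. The gene prediction score followed the level with a Spearman rho of 0.552 over the 36 members and of 0.593 over 571 other genes. The relation was not alike in the 3 families, with rho of 0.73 in Gly-CCC (12 genes), 0.239 in Gly-GCC (15 genes) and -0.43 in Gly-TCC (9 genes). Near-identical copies may share reads, so these points may not be independent.

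**Figure D2:**
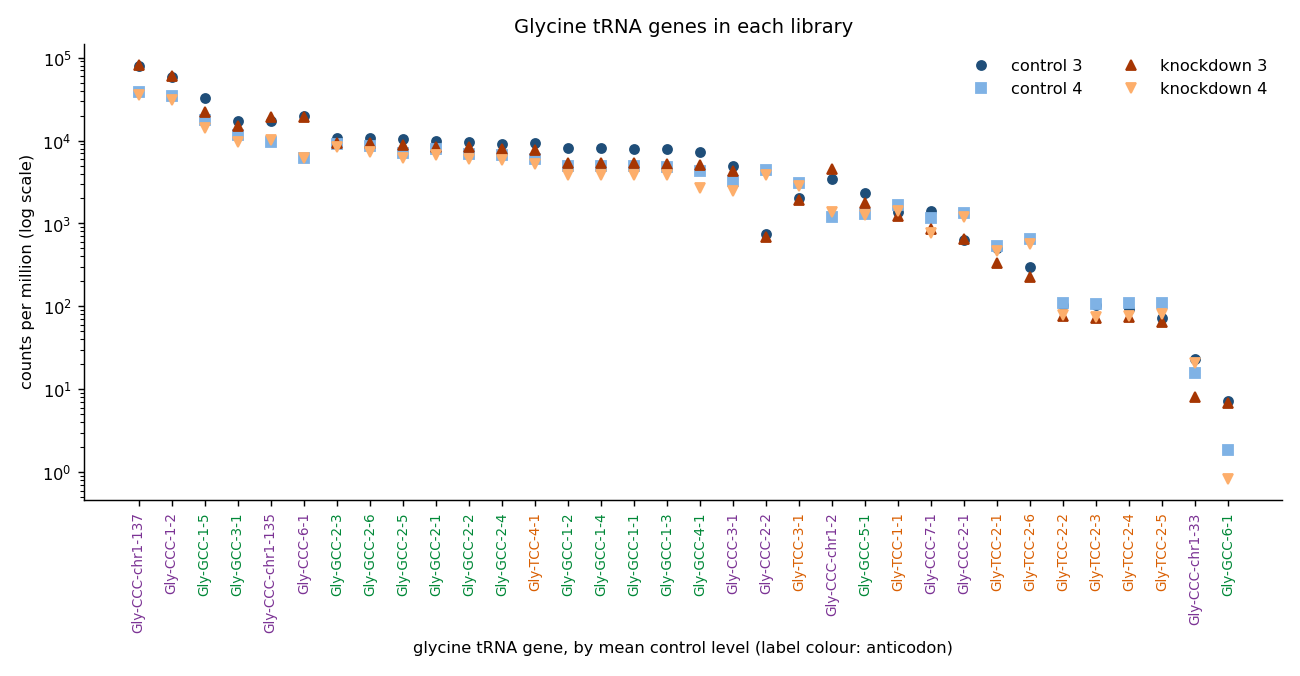
CPM on a log axis for the 34 glycine genes with a count, ordered by mean control level, with 1 point per library and the anticodon shown by the colour of the label. Levels run from 82167 CPM for Gly-CCC-chr1-137 in knockdown 3 to under 1 CPM for Gly-GCC-6-1 in knockdown 4. Gly-CCC-2-2 is split by number, at 752 and 682 CPM in number 3 and 4419 and 3831 CPM in number 4.

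By position, 21 members lie on chromosome 1, 5 on chromosome 16, 3 each on chromosomes 2 and 17, 2 on chromosome 6, and 1 each on chromosomes 19 and 21. In GENCODE v29, 22 lie in introns, 12 between annotated genes and 2 overlap an exon. None carries an intron in the table. A tRNA gene cluster on chromosome 1 (161440171 to 161531184, 91014 bases) holds 27 genes of the table, of which 6 are Gly-GCC, 6 Gly-TCC, 6 Leu-CAG, 5 Asp-GTC and 4 Glu-CTC. The GCC copies 1-1 to 1-4 follow each other at steps of 7373, 7431 and 7360 bases. The TCC genes 4-1, 2-2, 2-3, 2-4 and 2-5 follow at steps of 7414, 7381, 7410 and 7381 bases. The 12 glycine genes of this cluster held 16.8% and 18.2% of glycine counts in controls 3 and 4, and 13.4% and 16.4% in knockdown libraries 3 and 4.

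Genes with a common transcript number carry a common mature sequence by the naming of tRNA genes, and the rule for reads that match several copies is not given in the sources used. Gly-GCC-1-1 to Gly-GCC-1-4, the copies of the chromosome 1 array, had nearly equal counts. In control 3 they ran from 5573 to 5664, in control 4 from 5195 to 5313, in knockdown 3 from 4634 to 4732 and in knockdown 4 from 4594 to 4708. The SD between these 4 copies was 40.3, 58.3, 47.1 and 50.5 counts in that order, below the 74.9, 72.5, 68.4 and 68.1 counts that counting error alone gives. Whether these counts are of separate loci or of shared reads was not tested. The fifth copy, Gly-GCC-1-5 on chromosome 21, had 23027 and 19133 counts in the controls against 19218 and 17340 in the knockdown libraries. That was 4.10 and 3.64 times the mean of the array copies in controls 3 and 4, and 4.11 and 3.74 times in the knockdown libraries.

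The 6 copies of Gly-GCC-2, spread over chromosomes 1, 2, 6, 16 and 17, differed more. The highest had 1.18 and 1.38 times the count of the lowest in controls 3 and 4, and 1.19 and 1.44 times in the knockdown libraries. Gly-TCC-2-2 to Gly-TCC-2-5 had between 51 and 118 counts each. Gly-TCC-2-1, outside the cluster on chromosome 1 (146037061 to 146037132, plus strand), had 1.68 and 0.843 times the counts of Gly-TCC-2-6 in controls 3 and 4, and 1.49 and 0.826 times in knockdown libraries 3 and 4. The order of this pair of copies thus turned with the replicate number and not with the group. Gly-CCC-2-2 on chromosome 16 had 1.18 and 3.32 times the counts of its copy Gly-CCC-2-1 on chromosome 2 in controls 3 and 4, and 1.06 and 3.17 times in the knockdown libraries. Gly-CCC-chr1-137, which has the RefSeq number of a copy of Gly-CCC-1-2, had 1.37 and 1.12 times its counts in the controls against 1.36 and 1.16 times in the knockdown libraries. In these 3 pairs the ratio was much alike in libraries of the same number.

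**Figure D3:**
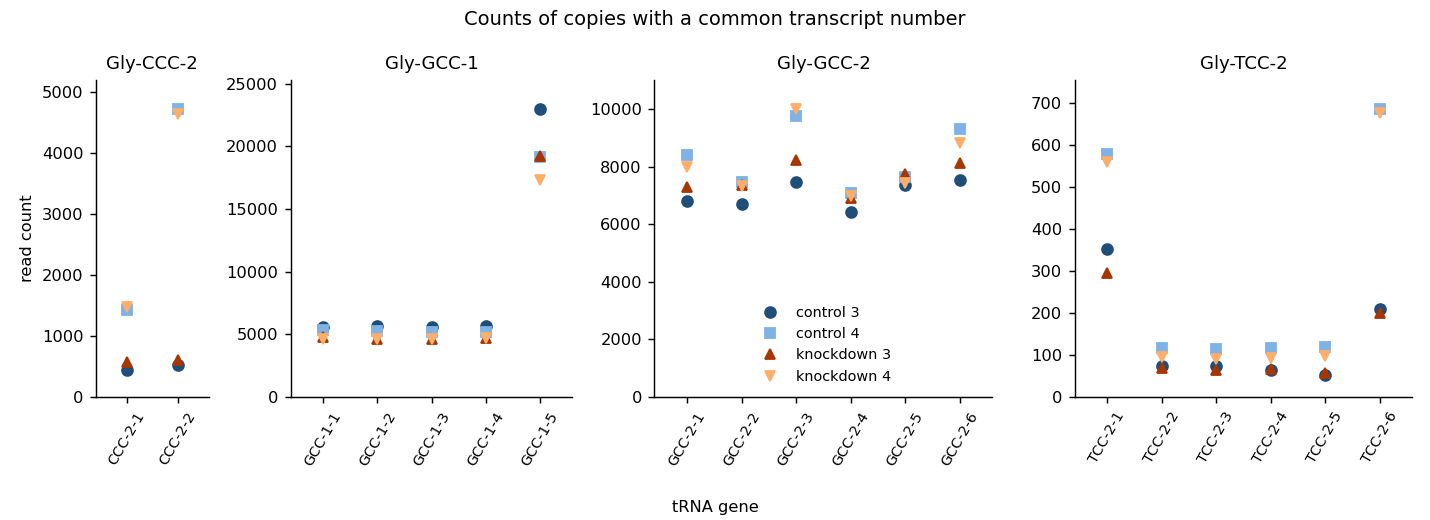
Read counts of the copies in the 4 glycine groups that hold more than 1 gene with a common transcript number, with 1 point per library. The first 4 copies of Gly-GCC-1 lie on top of each other in each library while Gly-GCC-1-5 stands at 17340 to 23027, and Gly-CCC-2-2 is near its copy in number 3 and about 3 times above it in number 4.

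The main comparison asks which glycine genes differ between the knockdown and control lines. With the group as the only term, no glycine gene passed, and neither did any other tRNA gene. By edgeR's quasi-likelihood test with Benjamini-Hochberg adjustment, 0 of 33 glycine genes passed an adjusted p of 0.05, beside 0 of 489 tested genes (0%). At an unadjusted p under 0.05 there were 0 glycine genes and 1 gene in all, and DESeq2 also called 0 genes. All of these fits leave the replicate number out. Fits with the number as a term did call genes, families and copy groups, with glycine genes and copy groups among them. Those calls are given in the closing section on processing. The glycine log2 fold changes, knockdown over control, ran from -0.71 to 0.34 with a median of -0.30, where the median of all tested genes was -0.03. The smallest edgeR p among the members was 0.336 (adjusted p = 0.998). With 2 libraries a group and a wide gap between the numbers, standard errors were large, between 0.57 and 1.14 for the named members.

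For the anticodon families, summed over their genes, 0 of 3 glycine families passed, beside 0 of 51 families tested (0%). The log2 fold change was -0.02 ± 0.71 for Gly-CCC, -0.35 ± 0.62 for Gly-GCC and -0.22 ± 0.71 for Gly-TCC (± SE), with an edgeR adjusted p of 0.997 for each. Within numbers 3 and 4, with factors from the family sums, Gly-CCC had log2 ratios of -0.04 and 0.02. Gly-GCC had -0.47 and -0.13, and Gly-TCC had -0.34 and -0.06. Over 9 ways of scaling the libraries, the GCC ratio stayed below 0 in both numbers, from -0.47 to -0.30 in number 3 and from -0.54 to -0.13 in number 4. The TCC ratio did so too. The CCC ratio was above 0 with 7 of the 9 scalings in number 3 and with 1 of the 9 in number 4. In number 4 the factors from the family sums gave the highest ratio of the 9 for each family. With factors from the single genes, the ratios in numbers 3 and 4 were 0.12 and -0.38 for CCC, -0.31 and -0.54 for GCC, and -0.18 and -0.46 for TCC. The fitted values hang on single libraries, and without control 3 they were 0.76 for CCC, 0.21 for GCC and 0.04 for TCC. At the level of copies with a common transcript number, 0 of 18 glycine groups passed, beside 0 of 326 groups tested (0%), with 1 group in all at an unadjusted p under 0.05 and 0 called by DESeq2.

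Though none passed, the members lay mostly below control when libraries of the same number were set side by side. These ratios are of counts scaled by edgeR's TMM factors, come from 1 library per group and have no error of their own. In 26 of 33 glycine genes the ratio was below 1 in both numbers, where 34.4% of all tested genes were. In 0 of 33 it was above 1 in both numbers, where 27.2% of all genes were. All 14 tested GCC genes and all 9 TCC genes were below in both, against 3 of 10 CCC genes. Of the other 7 CCC genes, Gly-CCC-chr1-33 was below in number 3 and above in number 4, with 7 to 25 counts, and the remaining 6 were above in number 3 and below in number 4. The median log2 ratio over the members was -0.16 in number 3 and -0.48 in number 4, and over all genes 0.03 and -0.09. Summed by copies and scaled by factors from those sums, 13 of 18 glycine groups were below control in both numbers, where 25.8% of all groups were, and 1 was above in both, where 35.3% were.

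How libraries are scaled moves the zero of these ratios. The median over all genes ran from -0.13 to 0.04 in number 3 and from -0.09 to 0.32 in number 4 over the 9 scalings. The count of glycine genes below in both numbers ran from 24 to 30 and that above in both from 0 to 2, while the share of all genes below in both ran from 17.8% to 38.2%. By amino acid, glycine had the third highest share of genes below in both numbers (78.8%), after selenocysteine (1 gene) and aspartate (13 of 15 genes, 86.7%), and ahead of glutamate (16 of 24 genes, 66.7%). The near-equal copies above count as several genes in these shares.

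**Figure D4:**
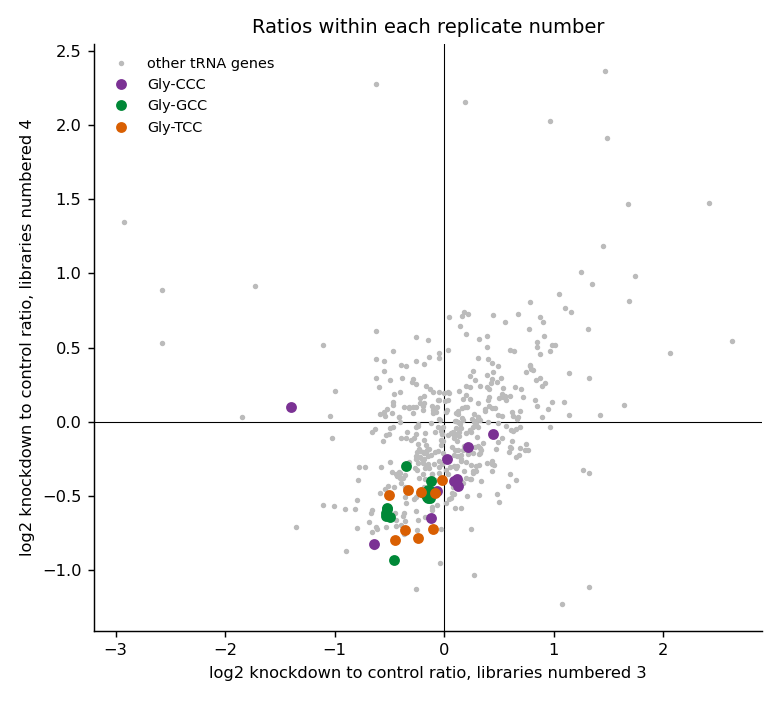
Log2 ratio of knockdown to control in libraries numbered 3 (x axis) and 4 (y axis) for the 489 tested tRNA genes, each point 1 gene, with glycine genes coloured by anticodon. The GCC and TCC genes lie in the lower left field, below control in both numbers, and 6 CCC genes lie to the right of it, above control in number 3 only.

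Among the GCC genes, the copies of Gly-GCC-1 had the lower ratios of the abundant groups. Their summed counts were 65134 and 37512 CPM in controls 3 and 4, and 43168 and 29618 CPM in knockdown libraries 3 and 4. Knockdown 3 lay between the controls. With the gene factors the log2 ratios were -0.52 and -0.60 within numbers 3 and 4, and with factors from the copy sums -0.59 and -0.50, so the order of the numbers depends on the scaling. The log2 fold change was -0.56 ± 0.71 (SE), and it was -0.02 without control 3, -0.22 without knockdown 4, -0.97 without control 4 and -1.02 without knockdown 3. Gly-GCC-2 had 60618 and 46394 CPM in the controls against 51992 and 40099 in the knockdown libraries, with ratios of -0.15 and -0.47 by the gene factors and a fold change of -0.28 ± 0.64. As a share of Gly-GCC counts, which does not depend on scaling, the Gly-GCC-1 copies made up 42.7% and 37.1% in controls 3 and 4. In knockdown libraries 3 and 4 they made up 36.9% and 35.5%, below both controls. The Wilson intervals of control 4 (36.85 to 37.43) and knockdown 3 (36.62 to 37.21) overlapped. The means were 39.9 ± 3.92% in control and 36.2 ± 0.981% in knockdown (SD, n = 2). The exact permutation p was 0.33, the smallest the design allows. The difference of -3.69 points was -5.77 in number 3 and -1.61 in number 4. With a library left out it ran from -0.92 (without control 3) to -6.46 (without control 4). The Gly-GCC-2 share overlapped between the groups (42.8 ± 4.39% against 46.3 ± 2.57%, SD, n = 2, exact permutation p = 0.67). How many other copy groups lay apart in such shares is not given here. Gly-GCC-4-1 had 7278 and 4278 CPM in the controls against 5019 and 2685 in the knockdown libraries, and log2 ratios of -0.46 and -0.93 by the gene factors.

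The members with the smallest p were Gly-TCC-2-3, Gly-CCC-7-1 and Gly-TCC-2-2 on the lower side. Gly-CCC-7-1, on chromosome 2 (11551707 to 11551767, plus strand) in an intron of GREB1, an oestrogen-regulated gene, had 982 and 1228 counts in controls 3 and 4, and 753 and 942 in the knockdown libraries. In CPM this was 1407 and 1148 against 857 and 778, with both knockdown libraries below both controls. Its log2 ratios were -0.64 and -0.82 within the numbers, and its log2 fold change was -0.71 ± 0.78 (SE, edgeR adjusted p = 0.998). Gly-TCC-2-3, in the chromosome 1 cluster (161454966 to 161455037, minus strand), had 73 and 114 counts in the controls against 64 and 89 in the knockdown libraries, or 105 and 107 CPM against 72.8 and 73.5. Its fold change was -0.60 ± 0.58 (SE, edgeR adjusted p = 0.998). Gly-TCC-2-2 (161447585 to 161447656, minus strand) had 105 and 108 CPM in the controls against 77.4 and 78.4, and a fold change of -0.52 ± 0.57.

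In all, 5 of 33 glycine genes had both knockdown CPM values below both control values, where 5.52% of all tested genes did. In 0 of 33 both knockdown values were above both controls, where 8.18% of all genes were. The 5 were Gly-CCC-7-1 and Gly-TCC-2-1, 2-2, 2-3 and 2-4, of which the last 4 are copies of a common transcript number. With TMM scaling there were 8 below, of which 7 were TCC genes, where 7.98% of all genes were below, and 0 above, where 5.11% were. Over the TCC-2 copies together, CPM was 1176 and 1618 in controls 3 and 4 and 852 and 1328 in knockdown libraries 3 and 4, so that the sum overlapped between groups. Its log2 ratios by the gene factors were -0.39 and -0.55, with a fold change of -0.45 ± 0.60 (SE).

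On the higher side the fitted fold change was above 0 in 2 of the 33 members. Gly-CCC-chr1-2 had 3479 and 1205 CPM in controls 3 and 4 and 4500 and 1365 in the knockdown libraries. Its log2 fold change was 0.34 ± 1.14 (SE, edgeR adjusted p = 0.998). Its ratio was 0.45 in number 3 and -0.08 in number 4, where 5 of the 9 scalings put it above 0. Gly-CCC-chr1-135 had 0.11 ± 0.95, with ratios of 0.22 and -0.17. In both genes knockdown 3 lay above the controls and knockdown 4 between them.

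The replicate numbers gave many calls where the groups, fitted without them, gave none, and glycine genes were mostly lower in number 4. With the group as a term, edgeR called 3 of 33 glycine genes higher in number 4 than in number 3, where 40.3% of all tested genes were called higher. It called 22 lower, where 37.4% of all were called lower. With library totals in place of TMM, 4 were called higher and 20 lower, while the share of calls on the higher side over all genes went from 51.8% to 64.4%. All 14 tested GCC genes were called lower. Of the CCC genes 7 were lower, 2 higher and 1 not called, and of the TCC genes 1 was lower, 1 higher and 7 not called. What a number stands for, such as a culture or a day, is not given in the labels. The fit with both terms left 1 residual degree of freedom. Its spread came wholly from the trend over all genes or families, not from each one's own libraries. The SEs and p-values between numbers rest on this pooled spread.

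Among families, 0 of 3 were called higher, where 37.3% of the 51 families were, and all 3 were called lower, where 35.3% were. The log2 fold change of number 4 over number 3 was -1.36 ± 0.15 for Gly-CCC, -0.93 ± 0.15 for Gly-GCC and -0.52 ± 0.18 for Gly-TCC (± SE), with an edgeR adjusted p of 0.0093 for the last. With library totals, Gly-TCC was no longer called (-0.13, adjusted p = 0.495), and the share of family calls on the higher side went from 51.4% to 67.6%. Of the 8 families outside glycine listed below as sources of anticodon-cleaved fragments, 2 were called higher, 4 lower and 2 were not called. Asp-GTC rose by 1.94 ± 0.18 and His-GTG by 0.97 ± 0.18, while Val-CAC fell by 1.70 ± 0.16 (log2 fold change -1.70) and Lys-TTT by 0.87 ± 0.17 (log2 fold change -0.87). Lys-CTT (-0.71 ± 0.17) and Val-AAC (-0.67 ± 0.17) were lower too. Glu-CTC (0.26 ± 0.17) and Glu-TTC (-0.15 ± 0.17) were not called.

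The 5 members with the largest change between the numbers were all CCC genes. Their SEs and p-values rest on the pooled spread named above. Gly-CCC-6-1 fell in number 4, with a log2 fold change of -2.10 ± 0.33 (SE, edgeR adjusted p = 1.21e-09). Gly-CCC-chr1-2 had -2.06 ± 0.24 (edgeR adjusted p = 5.49e-16), Gly-CCC-chr1-137 had -1.55 ± 0.45 (edgeR adjusted p = 0.0011) and Gly-CCC-chr1-135 had -1.31 ± 0.32 (edgeR adjusted p = 0.00012). Gly-CCC-2-2, on chromosome 16 (636736 to 636806, minus strand, between annotated genes), went the other way. It had 525 and 599 counts in control and knockdown 3, and 4728 and 4640 in control and knockdown 4. In CPM these were 752 and 682 against 4419 and 3831, and the log2 fold change was 2.09 ± 0.23 (edgeR adjusted p = 1.4e-17). Its copy Gly-CCC-2-1 rose by 0.56 ± 0.19 and Gly-TCC-2-6 by 0.77 ± 0.19. Genes of a single anticodon thus moved in opposite directions between the numbers.

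**Figure D5:**
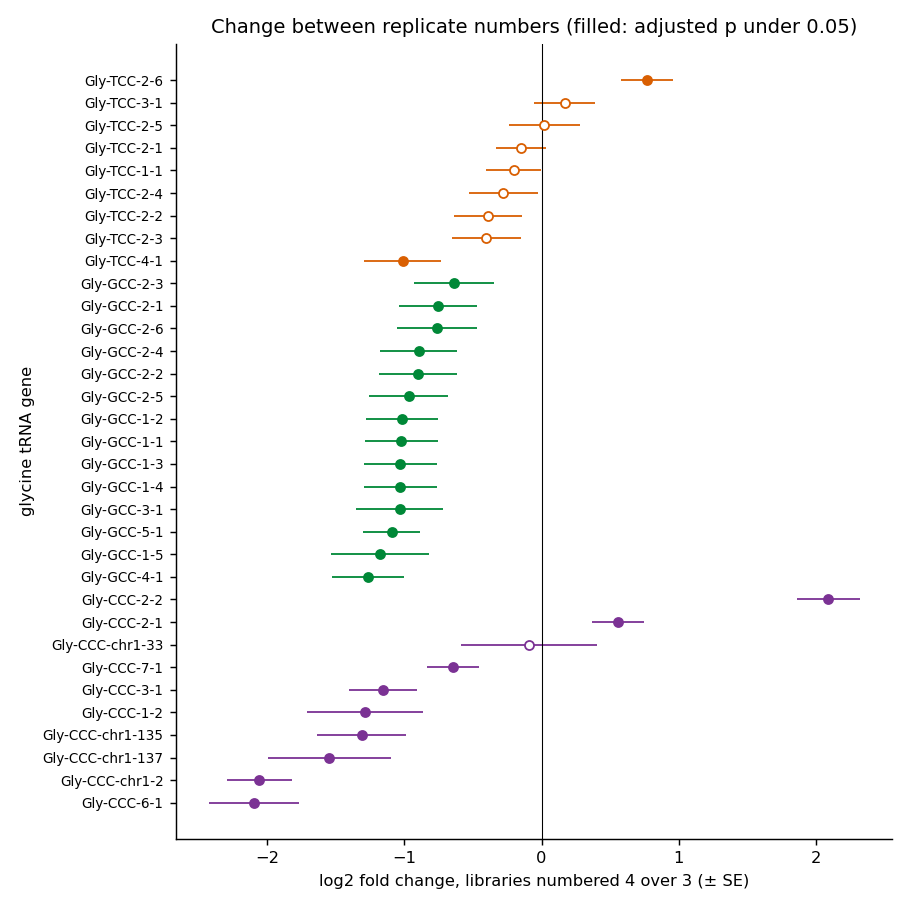
Log2 fold change of libraries numbered 4 over libraries numbered 3 for the 33 tested glycine genes, with the group as a term, as points with the standard error and filled where the edgeR adjusted p is under 0.05. All GCC genes lie between -1.26 and -0.64, while CCC genes run from -2.10 for Gly-CCC-6-1 to 2.09 for Gly-CCC-2-2.

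Families that carry the adenosine acted on by ADAT2 are the natural contrast to glycine. None of these 8 families passed between knockdown and control. With factors from the family sums, 7 of 8 had ratios above 1 in both numbers, where 45.1% of all families did, and 0 were below in both, where 17.6% were. Over the 9 scalings, 5 to 7 of the 8 were above in both, beside 17.6% to 45.1% of all families. The factors from the family sums gave the highest value of both ranges. Their median log2 fold change was 0.41, beside 0.16 for all families and -0.22 for the 3 glycine families. A list of 8 families outside glycine that are known as sources of anticodon-cleaved fragments was formed of Asp-GTC, Glu-CTC, Glu-TTC, His-GTG, Lys-CTT, Lys-TTT, Val-AAC and Val-CAC. Val-AAC also belongs to the families acted on by ADAT2 and is counted in both lists. None of these passed, 3 were below control in both numbers and 2 were above with the family factors, and over the 9 scalings 3 to 6 were below and 0 to 2 above, beside 17.6% to 37.3% of all families below. With the family factors, the 3 below were Asp-GTC, Glu-CTC and Lys-TTT. Their log2 ratios within numbers 3 and 4 were -0.42 and -0.04, -0.46 and -0.39, and -0.62 and -0.03, in that order. The 2 above were Val-CAC (0.08 and 0.24) and Val-AAC (0.17 and 0.13). Glu-TTC, His-GTG and Lys-CTT were below in number 3 and above in number 4. Gly-GCC had -0.47 and -0.13. The difference between glycine and these families was not tested.

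Names and columns disagreed for 3 genes that are called glycine but are listed with another amino acid, and these were not counted as members. Gly-CAC-chr1-17, listed as Val with anticodon CAC, had 28719 and 11756 counts in controls 3 and 4 and 40146 and 13940 in the knockdown libraries. These were 1.01 to 1.02 times the counts of Val-CAC-8-1 in each library. Had it been counted by name, the glycine share would have been 31.0 ± 11.9% in control and 28.2 ± 11.9% in knockdown (SD, n = 2). Gly-CAC-chr1-94, also listed as Val, had 2 to 5 counts, and Gly-TTG-chr8-10, listed as Gln, had none.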

How the data were processed

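Total RNA of each line was made into size-selected small RNA libraries with a commercial small RNA kit, per the labels' protocols. The deposited table holds whole-number counts per tRNA gene for 4 libraries (2 per group), which the authors did not normalize as far as the values show. The prediction score and mismatch number of each gene are as deposited, per the file headers. The submitters' processing notes list Bowtie2 2.2.2 and hg38, and the labels name summarizeOverlaps. How multiply matching reads, mismatches at modified bases and strand were handled is not stated in the sources used here, so counts of near-identical copies are uncertain. The members, lists and named items were chosen with earlier results of these data known.

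The test was edgeR's, version 4.0.16 under R 4.3.3 (quasi-likelihood, TMM, filterByExpr with a minimum count of 10, Benjamini-Hochberg over all tested genes, families or copy groups, threshold 0.05). The design had the group alone, and for the numbers the group as a further term. SEs are the log2 fold change divided by the root of F. Within-number ratios add 0.5 to each count. Shares carry 95% Wilson intervals and were compared by exact permutation (scipy 1.17.1). Locations are from GENCODE v29, and 29 of 36 members had both ends in common with a RefSeq tRNA gene. The tests were also run on simulated counts. The changes set there were larger than those fitted for glycine genes between the groups, so smaller changes were not checked. How many of the set changes were called is not given here. Alternatives were other scalings, no filter, DESeq2 1.42.0, other member rules, the replicate number as a term and leaving out each library. Named were the glycine families, the 10 members of highest control CPM, those with the smallest p, those with the largest change between numbers, those without a count, copies with a common number and names that disagree; Gly-GCC-4-1, Gly-GCC-6-1, Gly-CCC-chr1-33, the called-higher members and the genes without overlap were named after their values were seen. Sequences of the tRNAs were not used here.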

Additional observations from a re-analysis of the deposited data

How the results depend on the processing

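In the comparison of knockdown with control, 0 calls were made at the gene, family and copy group levels with library totals, RLE factors, no filter beyond 1 count, DESeq2, without the nm- rows (genes only) and with each library left out. With a replicate block, the counts were 39 genes, 3 families and 45 copy groups. A replicate block with library totals gave 76, 4 and 52, and a replicate block with DESeq2 gave 37, 2 and 10. Of these genes 1, 7 and 7 were glycine genes (of 33, 33 and 28 tested), all lower, where over all genes 13 of 489, 23 of 489 and 15 of 296 were called lower and 26, 53 and 22 higher. Of the copy groups 3, 3 and 1 were glycine (of 18, 18 and 17), all lower, where over all groups 12 of 326, 9 of 326 and 2 of 298 were lower and 33, 43 and 8 higher. No glycine family was called. Gly-CCC-7-1 was called in all 3 block fits (-0.73, edgeR adjusted p = 0.0066, with the plain block), and Gly-GCC-1-1 to 1-5 and Gly-GCC-4-1 in those with library totals or DESeq2. The plain block fit left 1 residual degree of freedom and took its spread from the trend over all genes. The labels do not say what a number marks. Deviations from the group means correlated at 0.92 over 489 genes between libraries that share a number, but 2 pairs are too few to settle a pairing. With 2 libraries a group, the deviations of the 2 numbers mirror each other, so both pairs give this same single value.

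Log2 fold changes close to 0 took the other sign with RLE factors, no filter and DESeq2. They were 0.0089, 0.021 and 0.022 for Gly-CCC-1-2, 0.0042, 0.030 and 0.021 for Gly-CCC-6-1, and 0.031, 0.047 and 0.045 for Gly-CCC-chr1-137. The cause was not tested. With each library left out, 30 of 88 fold changes of named genes, families and copy groups had the opposite sign, and each fit then set unequal numbers of libraries numbered 3 and 4 against each other. The lone library of a group was assumed to vary like the other group. Families ran from -0.98 to 0.76 (Gly-CCC), -0.94 to 0.21 (Gly-GCC) and -0.59 to 0.041 (Gly-TCC). Copy groups ran from -1.35 to 0.95 (Gly-CCC-2) and -0.64 to 0.0043 (Gly-GCC-2). Genes ran from -0.99 to 0.54 (Gly-CCC-1-2), -1.62 to 1.30 (Gly-CCC-2-2), -1.52 to 1.24 (Gly-CCC-6-1), -0.80 to 0.76 (Gly-CCC-chr1-135), -1.14 to 0.76 (Gly-CCC-chr1-137), -1.22 to 1.48 (Gly-CCC-chr1-2), -1.23 to 0.14 (Gly-GCC-1-5), -0.79 to 0.11 (Gly-GCC-2-1), -0.63 to 0.11 (Gly-GCC-2-3), -0.91 to 0.18 (Gly-GCC-2-5), -0.79 to 0.11 (Gly-GCC-2-6) and -0.96 to 0.24 (Gly-GCC-3-1).

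The CCC share of glycine differed by -0.33 to 9.94 points with a library left out, the GCC share by -8.70 to -0.59 and the share of the 2 largest genes by -1.07 to 7.73. Without those 2 genes the TCC share differed by 0.12 points, the other sign. Taking members by name kept the sign of each share. Between numbers, the counts of calls stayed within 1.5 times under every alternative run. With library totals Gly-TCC-2-2 (0.036) and Gly-TCC-2-3 (0.020) turned sign, neither being called. Gly-TCC lost its call without the group term too (edgeR adjusted p = 0.123), and Gly-GCC-2-3 with library totals, no filter or without that term. Gly-CCC-7-1 lost its call with library totals (-0.22, edgeR adjusted p = 0.249). Joining Gly-CCC-1-2 with Gly-CCC-chr1-137 through RefSeq numbers and the 9 scalings of the within-number ratios were chosen after seeing the data. The joined pair had -0.07 for knockdown and -1.22 for number 4. Depth limited the members with under 10 counts, which are 3 or 4 per library.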
